A study of Homo sapiens with 9 samples.

Results

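The interferon response genes described here are 43 genes that cells switch on when they sense foreign RNA or receive interferon. They were listed by name as well-known interferon-stimulated genes, with earlier results of these arrays known. Of the 43, 42 had at least 1 probe set of their own on the array, and 40 passed the brightness filter and were tested, out of 12505 genes tested in all. RSAD2 and CMPK2 were below the filter and are given as values, and STAT2 is named only.

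The arrays are Affymetrix expression arrays of SW1783 cells, an established human glioma line grown in culture. Cells received a synthetic miRNA duplex at 50 nM with the lipid reagent Lipofectamine RNAiMAX and were harvested after 24 h. There were 3 groups of 3 arrays each: miR-376a*A, the unedited form, miR-376a*G, in which G stands in for the inosine left by A-to-I RNA editing in the seed, and miR-control, a control miRNA. All 9 cultures therefore carried a transfected duplex. No untransfected or reagent-only cells are among the arrays used here, so the arrays compare 1 duplex with another and cannot show how far interferon genes responded to transfection itself. The labels call the arrays of a group biological replicates without naming separate days or passages, so the p-values measure the spread between these cultures.

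Double-stranded RNA in the cytoplasm is sensed by the helicases RIG-I and MDA5 and by the kinase PKR, and in endosomes by TLR3. Sensing induces type I and type III interferons, whose receptors act through JAK1 and TYK2 on a transcription factor complex with STAT2 and IRF9, which binds the interferon-stimulated response element in the promoters of many genes. Short synthetic duplexes and the lipids that carry them are known to start this response in some cell types, depending on length, ends and sequence.

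The miRNA is shown because the transfected forms differ within its seed. miR-376a* is the older name of hsa-miR-376a-5p, whose RefSeq mature sequence (MIR376A1, GRCh38.p14, chr14:101040788-101040809, plus strand, 22 bases) is given 5′ to 3′ with the seed, bases 2 to 8, in capitals. The sequences of the duplexes as transfected, and of the control miRNA, are not known from the sources used here.
hsa-miR-376a-5p: gUAGAUUCuccuucuaugagua

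The promoters of 5 genes on which the results below turn are shown for matches to the interferon-stimulated response element, found in many but not all of the listed genes. The element was searched as GAAANNGAAA on both strands (TTTCNNTTTC on the other), with overlapping matches counted, from 250 bases before to 50 after each gene start in RefSeq GRCh38.p14. It was found in 1255 of 35116 windows of that length, 3.57%, and in 28 of 47 windows of the interferon response genes, 59.6%. Counted by gene, 24 of the 35 listed genes with a window held a match, against 4.38% of all genes. The 200 bases before the start are printed 5′ to 3′ on the gene's own strand, with matches in capitals. They lie at chr1:1013297-1013496, plus strand, for ISG15, chr1:89065209-89065408, minus strand, for GBP1, chr6:32853705-32853904, minus strand, for TAP1, chr10:89392423-89392622, plus strand, for IFIT1 and chr12:112906762-112906961, plus strand, for OAS1. ISG15 held 2 overlapping matches starting at bases -113 and -107, TAP1 2 overlapping matches at -134 and -128, IFIT1 2 matches at -116 and -103 and GBP1 1 match at -127. The OAS1 window held no match to these letters, although the stretch printed holds gaaacgaaa, with a shorter gap. Other spellings of the element were not searched, so a window with no match may still hold it. A match is a run of letters and was not tested as a binding site.
ISG15: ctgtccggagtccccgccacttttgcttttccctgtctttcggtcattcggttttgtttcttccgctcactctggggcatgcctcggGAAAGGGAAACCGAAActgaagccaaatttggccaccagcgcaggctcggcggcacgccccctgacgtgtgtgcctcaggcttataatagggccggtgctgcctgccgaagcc
GBP1: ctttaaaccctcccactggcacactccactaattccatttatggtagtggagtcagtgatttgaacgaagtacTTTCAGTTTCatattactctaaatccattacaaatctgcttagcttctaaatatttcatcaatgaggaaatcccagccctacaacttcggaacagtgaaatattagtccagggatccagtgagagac
TAP1: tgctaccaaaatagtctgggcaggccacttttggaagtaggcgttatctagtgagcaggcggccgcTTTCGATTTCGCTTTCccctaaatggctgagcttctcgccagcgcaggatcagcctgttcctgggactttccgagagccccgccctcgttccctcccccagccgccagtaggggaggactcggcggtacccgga
IFIT1: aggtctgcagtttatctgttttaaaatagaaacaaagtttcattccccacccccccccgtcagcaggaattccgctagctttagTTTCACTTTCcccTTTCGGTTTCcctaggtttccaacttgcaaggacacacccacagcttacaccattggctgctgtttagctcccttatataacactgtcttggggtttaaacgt
OAS1: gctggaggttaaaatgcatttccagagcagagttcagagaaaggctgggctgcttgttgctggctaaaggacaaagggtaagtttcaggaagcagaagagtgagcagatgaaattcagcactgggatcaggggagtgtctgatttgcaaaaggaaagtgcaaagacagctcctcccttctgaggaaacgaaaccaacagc

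Levels are log2(signal + 16) after quantile normalization, and differences are on the same log2 scale, so 1 unit is 2-fold and dim genes are understated. Levels of different genes come from different probe sets and are not compared with each other. In these cell populations a lower level can mean fewer cells expressing a gene or less RNA per cell, which cannot be told apart. Of 11 glioma and glial markers, 6 passed the filter, with VIM at 11.26, 11.34 and 11.35 and CD44 at 11.16, 11.20 and 11.16 as the means of miR-376a*A, miR-376a*G and miR-control arrays. GFAP (4.17 in miR-376a*A arrays, 4.19 in miR-376a*G arrays and 4.19 in control arrays) and OLIG2 (4.71, 4.57 and 4.58 in the same order) did not, so the defining transcripts of astrocytes and of the oligodendrocyte lineage were not measurable above the filter. Of 11 leukocyte markers measured, the other cell type checked because it responds strongly to interferon, 3 passed the filter (MS4A1, ITGAM and FCER1G), and PTPRC, CD14 and LYZ were below it in all groups. Median deposited signal was 18.8 to 24.0 over the 9 arrays. Control replicate 1 differed most from the rest: its best rank correlation with another array was 0.941, against 0.969 to 0.970 for the other 8, and its brightest probe set read 7191, against 3601 to 4374.

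No interferon response gene passed limma's test in any comparison of the transfections. With miR-376a*A against control 0 of 40 passed an adjusted p of 0.05, where 3.33% of all genes tested did. With miR-376a*G against control 0 of 40 passed, where 4.62% of all genes did, and with miR-376a*A against miR-376a*G 0 of 40, where 2.63% did. The smallest limma adjusted p among the 40 was 0.152 (GBP1), 0.0911 (IFI44) and 0.179 (GBP1) in these comparisons. At an unadjusted p under 0.05, limma gave 5 genes with miR-376a*A against control (14.9% of all genes), IFIT1, HERC5 and EIF2AK2 higher and GBP1 and SAMD9L lower. It gave 2 with miR-376a*G against control, IFI44 and PARP14, both higher (17.8% of all genes), and 1 between the forms, GBP1, lower with miR-376a*A (10.7% of all genes).

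The median difference of the 40 genes was 0.11 with miR-376a*A against control, with 27 genes above 0, beside 0.0055 and 51.3% above 0 over all genes tested. With miR-376a*G against control the median was 0.045 with 25 genes above 0, beside 0.0069 and 51.4%. Between miR-376a*A and miR-376a*G it was 0.036 with 23 genes above 0, beside 0.00042 and 50.1%. Without control replicate 1 the medians against control were 0.18 with miR-376a*A, with 30 genes above 0 beside 54.6% of all genes, and 0.12 with miR-376a*G, with 34 above 0 beside 54.5%. The sign of 7 and 13 of the 40 differences from control turned without that array. The medians themselves turned with other single arrays: without miR-376a*A replicate 3 they were -0.099 against control and -0.14 against miR-376a*G. Without control replicate 3 the medians against control were -0.0091 for miR-376a*A and -0.062 for miR-376a*G, and without miR-376a*G replicate 2 its median against control was -0.011. The other ones that turned were those between the forms without miR-376a*G replicate 3 (-0.049), with the mean of a gene's probe sets (-0.017) and with array weights (-0.030).

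How large a difference the arrays could have missed varied from gene to gene. The 95% interval of a difference extended a median of 0.43 to each side for these genes, against 0.32 for all genes. It lay within 1.5-fold in either direction for 23 of the 40 genes with miR-376a*A against control, for 20 with miR-376a*G against control and for 26 between the forms. It reached past 2-fold for MX1, DDX60 and GBP1 with miR-376a*A against control, for MX1, OAS1 and DDX60 with miR-376a*G against control, and for MX1 and GBP1 between the forms. For these genes a 2-fold difference was within the interval, and a missed threshold does not show equal levels.

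**Figure D1:**
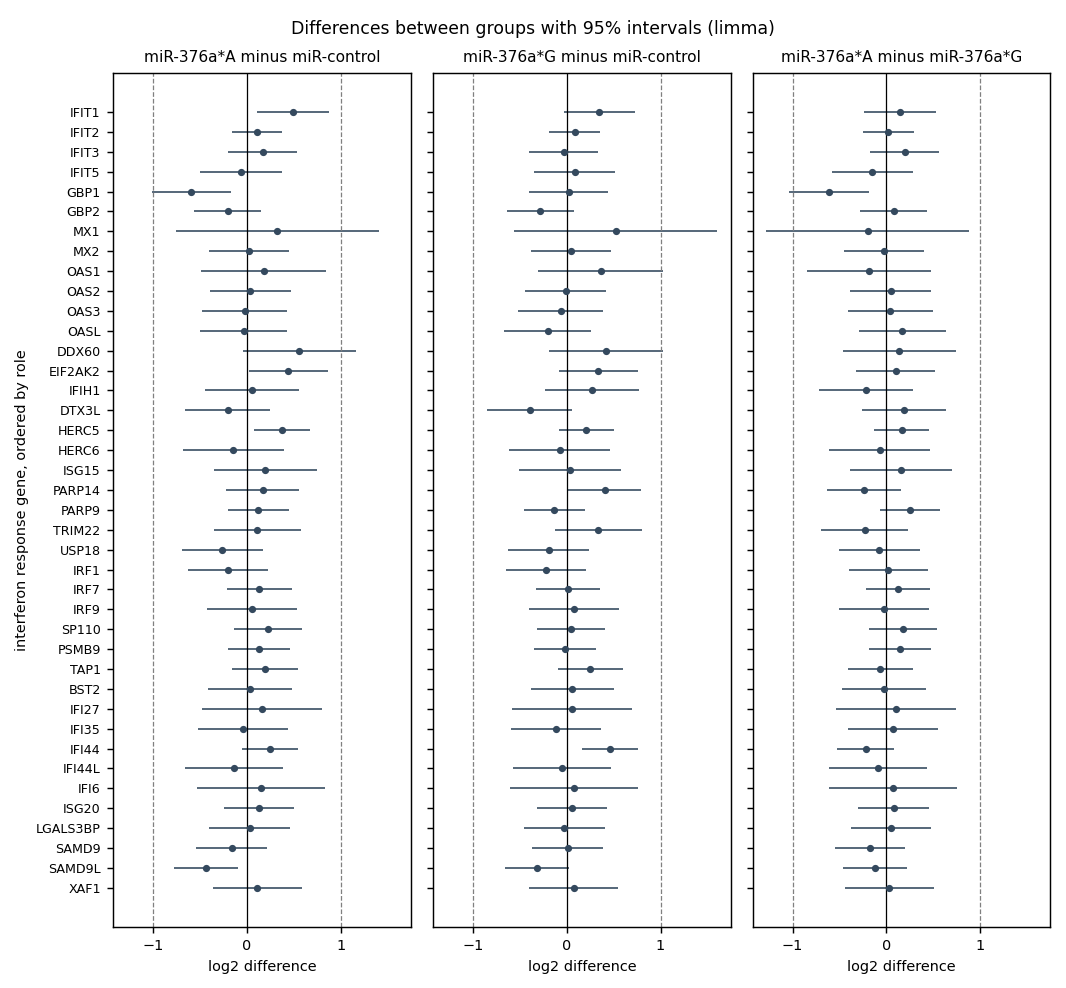
Log2 differences of the 40 tested interferon response genes in the 3 comparisons (points) with 95% intervals from limma (bars), genes grouped by role and dashed lines at 2-fold. Most intervals cross 0, those of GBP1 lie below 0 in both comparisons of miR-376a*A, and those of MX1 are the widest.

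The following values are log2 levels, with the arrays of a group in the order of replicates 1, 2 and 3. Among the IFIT proteins, which bind foreign RNA ends and block its translation, IFIT1 had 8.39, 8.12 and 8.71 in miR-376a*A arrays, 8.47, 8.06 and 8.26 in miR-376a*G arrays and 7.72, 8.06 and 7.96 in control arrays. All 3 miR-376a*A arrays lay above all 3 control arrays, and those of miR-376a*G met the control range at 8.06. The difference with miR-376a*A against control was 0.49 (95% interval 0.11 to 0.88, limma adjusted p = 0.192), and with miR-376a*G it was 0.35 (-0.03 to 0.73, adjusted p = 0.332). IFIT3, a partner that stabilises IFIT1, had 8.57, 8.27 and 8.89 in miR-376a*A arrays, 8.43, 8.55 and 8.16 in miR-376a*G arrays and 8.54, 8.34 and 8.36 in control arrays, and the groups overlapped. IFIT2 and IFIT5, the other members of the family here, differed by -0.15 to 0.11 in the 3 comparisons. IFIT5 was low in control replicate 1, at 7.01 against 7.72 and 7.74 in the other controls.

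MX1 and MX2 are dynamin-like GTPases that trap viral nucleoproteins, and MX1 was the most variable gene of the list. MX1 stood at 7.18, 6.79 and 8.93 in miR-376a*A arrays, at 7.74, 8.19 and 7.56 in miR-376a*G arrays and at 7.94, 6.89 and 7.10 in control arrays. Within the miR-376a*A group replicate 3 was 3.84-fold above the mean of replicates 1 and 2, and it was the highest of the 9 arrays. The difference with miR-376a*A against control was 0.32 (-0.76 to 1.4, limma adjusted p = 0.821), and it was -0.32 without miR-376a*A replicate 3. With miR-376a*G against control it was 0.52 (-0.56 to 1.60, adjusted p = 0.633). Between the forms it was -0.20 (-1.28 to 0.88, adjusted p = 0.984), running from -0.85 without miR-376a*A replicate 3 to 0.22 without miR-376a*A replicate 2. MX2 differed by 0.02, 0.05 and -0.02 in the same 3 comparisons.

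The guanylate-binding proteins are large GTPases that attack the vacuoles and membranes of intracellular pathogens. GBP1 had 7.4, 7.14 and 7.54 in miR-376a*A arrays, 7.67, 7.97 and 8.28 in miR-376a*G arrays and 8.27, 7.74 and 7.85 in control arrays. Every miR-376a*A array lay below every array of the other groups. The difference was -0.59 with miR-376a*A against control (95% interval -1.02 to -0.17, limma adjusted p = 0.152) and -0.61 against miR-376a*G (-1.04 to -0.19, adjusted p = 0.179), and miR-376a*G differed from control by 0.02. Over 17 alternative settings limma's adjusted p ran from 0.0371 to 0.483 against control, with 1 past the threshold, and from 0.00707 to 0.597 between the forms, with 4 past it. GBP1 has 2 other probe sets above the filter, which gave -0.05 and -0.49 with miR-376a*A against control and -0.39 and -0.71 between the forms. GBP2 differed by -0.20, -0.28 and 0.08 with miR-376a*A against control, miR-376a*G against control and between the forms, without passing.

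The OAS enzymes make 2-5A, the messenger that activates RNase L, when they bind double-stranded RNA. OAS1 read 5.79, 5.75 and 6.85 in miR-376a*A arrays, 6.33, 6.28 and 6.35 in miR-376a*G arrays and 6.39, 5.99 and 5.48 in control arrays. The 3 miR-376a*G arrays lay within 0.07 of each other, while miR-376a*A replicate 3 stood 1.08 above the mean of the other arrays of its group. OAS1 differed by 0.18 with miR-376a*A against control (-0.49 to 0.84) and by 0.36 with miR-376a*G against control (-0.30 to 1.03), with limma adjusted p = 0.845 and 0.584. Its other probe set above the filter, slightly dimmer, gave the reverse order, 0.32 and 0.15, without passing. Between the forms it gave 0.17, where the probe set used gave -0.19. OASL, a catalytically inactive relative that enhances RIG-I signalling, had 7.03, 7.19 and 7.45 in miR-376a*A arrays, 7.11, 7.07 and 6.98 in miR-376a*G arrays and 7.78, 6.94 and 7.04 in control arrays, where replicate 1 was the highest of all 9 arrays. OAS2 and OAS3 differed by -0.07 to 0.05 in the 3 comparisons. The second probe set of OAS2 above the filter, dimmer than the one used, gave -0.69 with miR-376a*A against miR-376a*G (limma adjusted p = 0.0394 over 22896 probe sets), where the brighter one gave 0.05. It was the only call among the 24 other probe sets of 17 listed genes, in a fit chosen after the data were seen.

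Of the sensors and kinases that bind double-stranded RNA, 3 are in the list, and none passed the test against control with either form when all arrays were used. EIF2AK2, which encodes the kinase PKR that halts translation, had 9.50, 9.15 and 9.62 in miR-376a*A arrays, 9.48, 9.23 and 9.26 in miR-376a*G arrays and 8.71, 8.82 and 9.43 in control arrays. Control replicates 1 and 2 were below all 6 arrays of the 2 forms, and control replicate 3 was within their range. The differences were 0.44 with miR-376a*A (0.02 to 0.86, limma adjusted p = 0.314) and 0.34 with miR-376a*G (-0.08 to 0.76, adjusted p = 0.402). Without control replicate 3 that of miR-376a*A was 0.66, with limma adjusted p = 0.0486. Other probe sets of EIF2AK2 above the filter, both dimmer, gave 0.11 and -0.12 with miR-376a*A against control. With miR-376a*G against control they gave 0.02 and 0.39. DDX60, a helicase that aids RIG-I-like receptors, had 6.36, 6.35 and 6.72 in miR-376a*A arrays, 6.49, 6.31 and 6.21 in miR-376a*G arrays and 5.17, 6.27 and 6.32 in control arrays. The control mean rests on replicate 1, which was 2.18-fold below the other controls. The difference of 0.56 with miR-376a*A against control was 0.18 at its lowest over the alternatives and that of 0.42 with miR-376a*G was 0.04. IFIH1, the RNA sensor MDA5, had 5.68, 5.5 and 6.14 in miR-376a*A arrays, 6.09, 6.05 and 5.82 in miR-376a*G arrays and 5.23, 5.99 and 5.93 in control arrays, again lowest in control replicate 1. It differed from control by 0.05 with miR-376a*A and by 0.27 with miR-376a*G, and without control replicate 1 by -0.19 and 0.03.

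ISG15 is a ubiquitin-like protein attached to other proteins in the antiviral state, with HERC5 as its ligase and USP18 as its remover. ISG15 had 9.79, 9.79 and 10.42 in miR-376a*A arrays, 9.96, 10.04 and 9.52 in miR-376a*G arrays and 10.29, 9.73 and 9.38 in control arrays. The control arrays spanned 0.91 and held the miR-376a*G and all but 1 of the miR-376a*A values. ISG15 differed by 0.20, 0.04 and 0.16 with miR-376a*A against control, miR-376a*G against control and between the forms. HERC5 had 6.46, 6.10 and 6.36 in miR-376a*A arrays, 6.34, 6.02 and 6.07 in miR-376a*G arrays and 5.94, 5.87 and 5.98 in control arrays, with every array of both forms above the controls. Its differences against control were 0.37 (0.08 to 0.67) with miR-376a*A and 0.21 (-0.09 to 0.51) with miR-376a*G, with limma adjusted p = 0.202 and 0.461. USP18 had 6.17, 6.08 and 6.47 in miR-376a*A arrays, 6.21, 6.48 and 6.26 in miR-376a*G arrays and 6.94, 6.18 and 6.39 in control arrays. It differed by -0.27 with miR-376a*A and by -0.19 with miR-376a*G against control, and control replicate 1 was its highest array.

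Other ubiquitin ligases and ADP-ribosyltransferases moved in no common direction. DTX3L, a ubiquitin ligase, had 7.36, 7.34 and 8.17 in miR-376a*A arrays, 7.43, 7.50 and 7.38 in miR-376a*G arrays and 7.67, 7.89 and 7.94 in control arrays. All miR-376a*G arrays lay below the controls, at -0.39 (-0.84 to 0.06, limma adjusted p = 0.354), while miR-376a*A replicate 3 was above them. PARP9, which acts in a complex with DTX3L, had 7.11, 7.06 and 7.4 in miR-376a*A arrays, 7.0, 7.11 and 6.71 in miR-376a*G arrays and 6.91, 7.11 and 7.19 in control arrays, and the groups overlapped. PARP14 had 5.94, 5.97 and 6.21 in miR-376a*A arrays, 6.19, 6.54 and 6.12 in miR-376a*G arrays and 5.67, 5.73 and 6.22 in control arrays. It differed by 0.41 with miR-376a*G against control (0.02 to 0.80, limma adjusted p = 0.258) and by -0.24 between the forms. TRIM22, an antiviral tripartite-motif protein, had 6.14, 6.10 and 6.23 in miR-376a*A arrays, 6.38, 6.39 and 6.39 in miR-376a*G arrays and 5.47, 6.34 and 6.34 in control arrays. The miR-376a*G arrays differed by 0.01 among themselves, and control replicate 1 was the lowest of the 9. HERC6 differed by -0.15, -0.07 and -0.07 with miR-376a*A against control, miR-376a*G against control and between the forms.

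Of the transcription factors, IRF9 is the DNA-binding subunit of the complex that carries the interferon signal. IRF9 had 9.12, 9.01 and 9.71 in miR-376a*A arrays, 9.43, 9.40 and 9.10 in miR-376a*G arrays and 9.64, 9.12 and 8.93 in control arrays. The 3 ranges overlapped almost fully, and the differences were 0.05, 0.08 and -0.03 with miR-376a*A against control, miR-376a*G against control and between the forms. IRF1, IRF7, which amplifies interferon transcription, and the nuclear body protein SP110 differed by -0.22 to 0.22 in the 3 comparisons, none past the threshold. Dimmer probe sets of SP110 gave -0.18 to 0.05 with miR-376a*A and -0.40 to -0.09 with miR-376a*G against control, also without passing. In antigen processing, the immunoproteasome subunit PSMB9 had 9.31, 9.23 and 9.53 in miR-376a*A arrays, 9.35, 9.32 and 8.96 in miR-376a*G arrays and 9.42, 9.30 and 8.97 in control arrays. TAP1, a subunit of the peptide transporter of the MHC class I pathway, had 8.13, 8.29 and 8.42 in miR-376a*A arrays, 8.26, 8.43 and 8.34 in miR-376a*G arrays and 8.44, 8.0 and 7.83 in control arrays. Control replicate 1 was the highest array for TAP1, and control replicates 2 and 3 were the lowest. TAP1 differed by 0.19 (-0.16 to 0.54) and 0.25 (-0.10 to 0.60) from control with miR-376a*A and miR-376a*G, with limma adjusted p = 0.645 and 0.452.

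**Figure D2:**
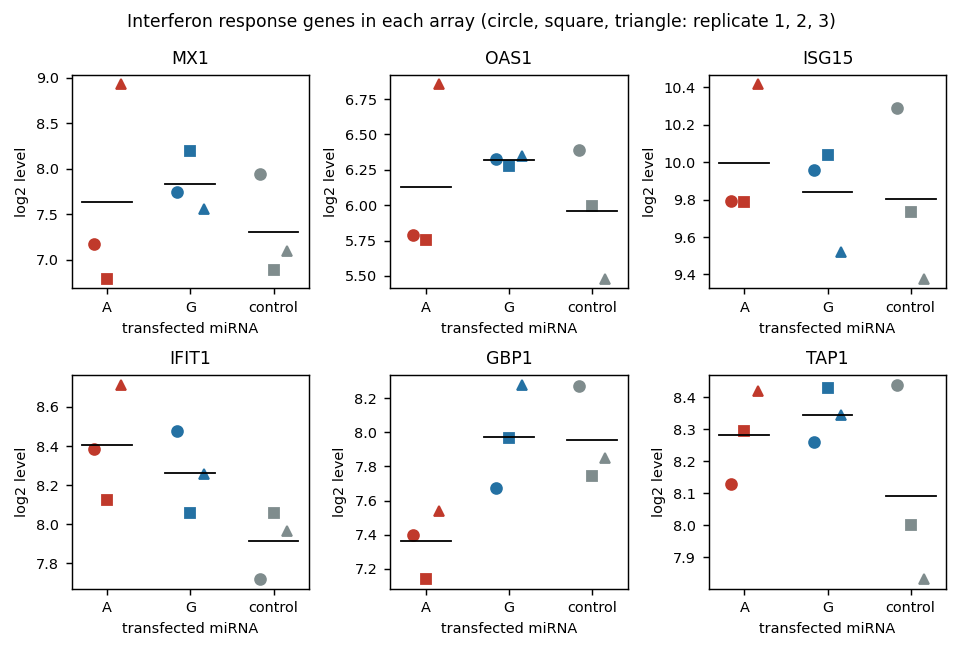
Log2 level of 6 interferon response genes in each of the 9 arrays, with circles, squares and triangles for replicates 1, 2 and 3, bars for group means, and miR-376a*A (A), miR-376a*G (G) and miR-control arrays from left to right; each panel has its own scale. MX1, OAS1 and ISG15 were highest in miR-376a*A replicate 3, and GBP1 was lower in all miR-376a*A arrays than in any other.

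The remaining effectors are a mixed group of 11 genes. IFI6, a mitochondrial and endoplasmic reticulum protein that limits cell death and flavivirus replication, had 8.94, 8.92 and 9.63 in miR-376a*A arrays, 9.15, 9.45 and 8.67 in miR-376a*G arrays and 9.62, 8.99 and 8.44 in control arrays. IFI27, its close relative, had 9.72, 9.64 and 10.22 in miR-376a*A arrays, 9.85, 10.16 and 9.26 in miR-376a*G arrays and 10.21, 9.75 and 9.15 in control arrays. For both genes the arrays of each group spread more widely than the group means, which differed by 0.06 to 0.16. BST2, tetherin, which holds budding virions at the cell surface, had 9.44, 9.85 and 9.98 in miR-376a*A arrays, 9.80, 9.82 and 9.74 in miR-376a*G arrays and 10.17, 9.70 and 9.30 in control arrays. LGALS3BP, a secreted galectin-binding glycoprotein, had 9.56, 9.82 and 9.71 in miR-376a*A arrays, 9.58, 9.63 and 9.73 in miR-376a*G arrays and 10.19, 9.56 and 9.26 in control arrays. Both were highest in control replicate 1 and differed by no more than 0.06 on average in any comparison.

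IFI44 and SAMD9L stood farthest from control among these effectors. IFI44, a cytoplasmic antiviral protein, had 8.81, 8.62 and 9.12 in miR-376a*A arrays, 9.04, 9.15 and 9.01 in miR-376a*G arrays and 8.47, 8.60 and 8.75 in control arrays. All miR-376a*G arrays lay above the controls, with a difference of 0.46 (0.16 to 0.77, limma adjusted p = 0.0911), and with a block for replicate number the adjusted p was 0.129. SAMD9L, which restricts translation and growth, had 7.42, 7.28 and 7.73 in miR-376a*A arrays, 7.62, 7.65 and 7.53 in miR-376a*G arrays and 8.17, 7.70 and 7.87 in control arrays. It differed by -0.44 with miR-376a*A against control (-0.78 to -0.10, limma adjusted p = 0.196) and by -0.31 with miR-376a*G. Its relative SAMD9, with IFI35, IFI44L, the exonuclease ISG20 and the apoptosis regulator XAF1, differed by -0.17 to 0.13 in the 3 comparisons, with none past the threshold.

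Below the filter, RSAD2, the enzyme viperin that makes a chain-terminating nucleotide, had 5.18, 5.18 and 5.44 in miR-376a*A arrays, 5.28, 5.27 and 5.22 in miR-376a*G arrays and 4.81, 5.11 and 4.75 in control arrays. Every array of both forms was above the controls, and in a fit with no brightness filter the differences were 0.38 and 0.37, with limma adjusted p = 0.256 and 0.221. CMPK2, its genomic neighbour and a nucleotide kinase, had 5.07, 4.91 and 5.44 in miR-376a*A arrays, 5.20, 5.15 and 5.04 in miR-376a*G arrays and 4.68, 5.11 and 5.14 in control arrays, and the groups overlapped.

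The variation that the genes had in common ran between arrays of 1 group. Array miR-376a*A replicate 3, picked out after its values were seen, was the highest of its group for 37 of the 40 genes, where it was the highest for 36.4% of all genes, and the lowest for 0. The exceptions were IFIT2 and HERC5, highest in miR-376a*A replicate 1, and LGALS3BP, highest in replicate 2. For 23 of the 40 genes it was the highest of all 9 arrays, against 6.84% of all genes. It stood at least 0.5 above the mean of replicates 1 and 2 for 14 of the 40 genes, where 0.600% of all genes did (75 of 12505), and at least 0.5 below it for 0. MX1 (1.94), OAS1 (1.08), IFI44L (0.96), HERC6 (0.85), DTX3L (0.81), IFI6 (0.70), OAS2 (0.69) and OAS3 (0.67) led, followed by XAF1, IRF9, ISG15, MX2, IFIH1 and IFI27 between 0.65 and 0.54. These 14 were 18.7% of the 75 genes, and 56 of the 75 were in none of the interferon lists, among them FAXDC2 (1.25) and RAB4B (1.09).

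**Figure D3:**
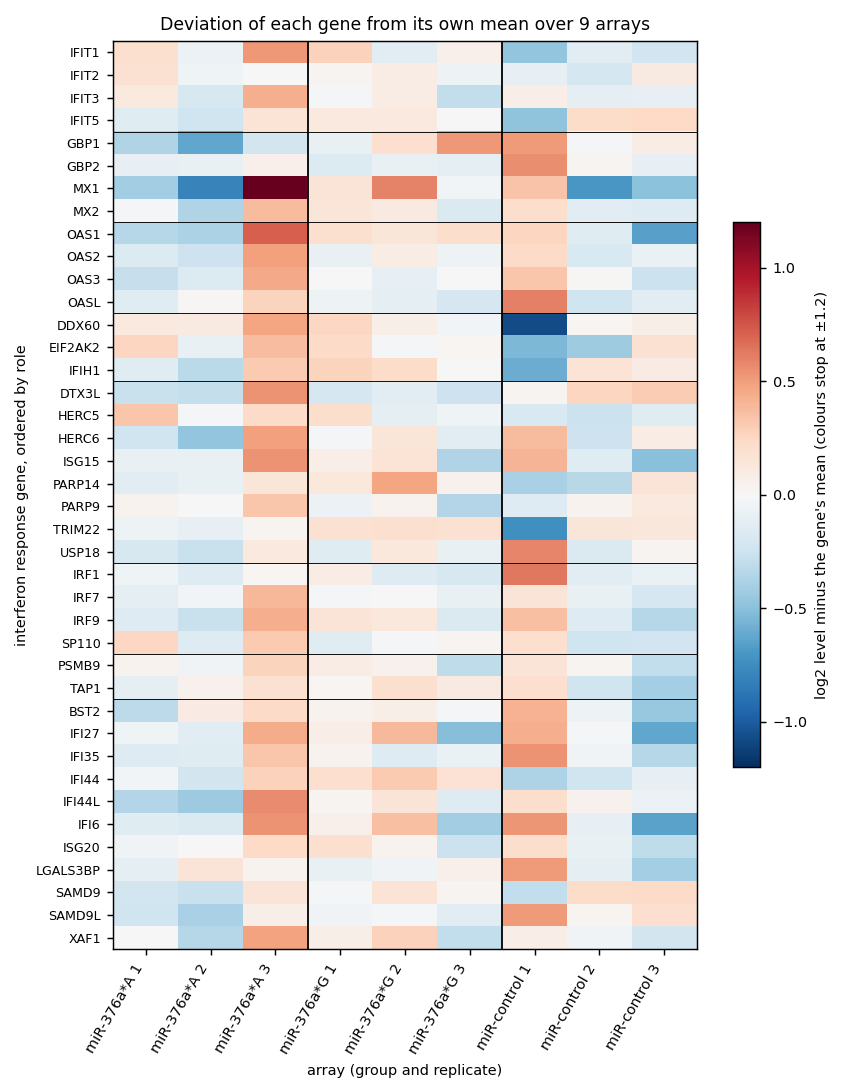
Heat map of the 40 interferon response genes (rows, ordered by role) in the 9 arrays (columns: miR-376a*A, miR-376a*G, miR-control), coloured by the log2 level minus the gene's mean over the arrays. The column of miR-376a*A replicate 3 is above the gene mean for 38 of 40 genes, and that of control replicate 1 mixes high and low genes.

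Measured from each gene's mean over the 9 arrays, the median deviation of the 40 genes was -0.11, -0.15 and 0.32 in the miR-376a*A arrays, 0.055, 0.092 and -0.070 in the miR-376a*G arrays and 0.21, -0.11 and -0.11 in the control arrays. Over all genes the medians of the 9 arrays lay between -0.018 and 0.033. In miR-376a*A replicate 3 the shift was seen in every role, from 0.22 in the median of the GTPases to 0.47 in that of the OAS family. By promoter, the median step above replicates 1 and 2 was 0.40 for 23 tested genes with a match to GAAANNGAAA in a window. It was 0.48 for 9 with no match, OAS1 among them, and 8 and 4 genes reached 0.5. Since other spellings were not searched, the 9 genes cannot be taken to lack the element. Of 43 other interferon-stimulated genes 33 were highest of the group in that array, with 4 at least 0.5 above. Of 14 MHC class I genes 9 were highest in it, with 0 at least 0.5 above. Among 9 sensors and adaptors 6 were highest, RIGI with the only step of that size. The shares of all genes were 36.4% highest of the group in that array and 0.600% at least 0.5 above. In the marker lists the median deviation in that array was 0.099 for 6 glioma markers and -0.051 for 3 leukocyte markers. Whether the cultures, the transfection or the RNA of that array differed was not tested.

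**Figure D4:**
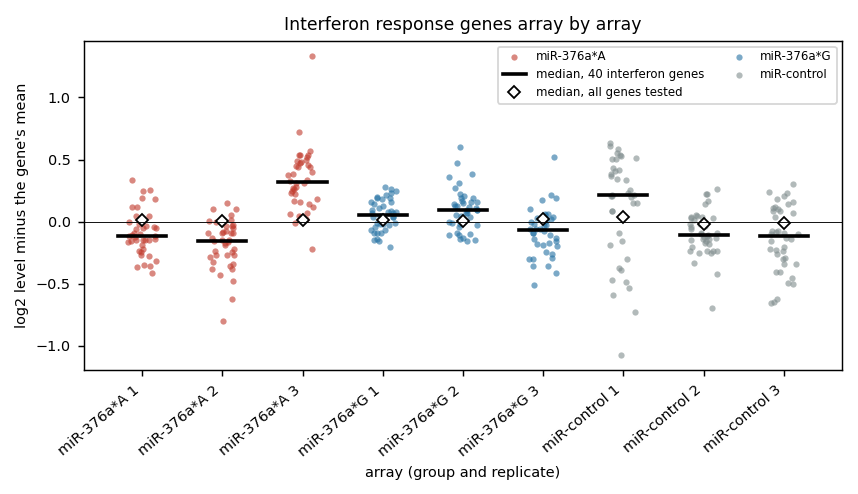
Log2 level minus the gene's own mean for the 40 interferon response genes in each of the 9 arrays (points; miR-376a*A, miR-376a*G and miR-control from left to right), with the median of the 40 genes (bar) and of all 12505 genes (diamond). The medians of the 40 genes run from -0.15 in miR-376a*A replicate 2 to 0.32 in miR-376a*A replicate 3, while those of all genes stay near 0.

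Control replicate 1 was high for some of the genes and low for others. It stood at least 0.5 above the mean of control replicates 2 and 3 for 14 of the 40 genes, where 17.6% of all genes did, and at least 0.5 below for 5, a share of the list near the 17.1% of all genes that did. The 5 low genes were IFIT5, IFIH1, SAMD9, TRIM22 and DDX60, and the high ones included MX1 (0.94), IFI6 (0.90), OASL (0.79), LGALS3BP (0.77) and ISG15 (0.73). Its median deviation was -0.59 for the 3 RNA sensors and kinases, -0.28 for the IFIT family, 0.43 for the GTPases and 0.42 for the 11 other effectors. Single roles held genes of both directions, such as IFI6 (0.90) and SAMD9 (-0.52) among the other effectors. In the same array all 3 leukocyte markers above the filter were the highest of the controls, as were 47.5% of all genes. The log2 summed signal of the 11 leukocyte markers was 6.99 to 7.17 in miR-376a*A and 7.0 to 7.28 in miR-376a*G arrays. In control arrays it was 6.76 to 7.66. The part of these markers in the results was not tested.

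Spread within groups was wider for these genes than for most. The median pooled standard deviation within groups was 0.27 for the 40 genes and 0.18 for all genes. By group the medians were 0.25 in miR-376a*A arrays, 0.14 in miR-376a*G arrays and 0.31 in control arrays for the 40 genes, beside 0.089, 0.097 and 0.24 for all genes. Without control replicate 1 the pooled medians were 0.21 and 0.11. That array decided some calls, since without it 1 of the 40 genes passed in each comparison. TAP1 was then higher by 0.36 (SE 0.10, limma adjusted p = 0.0412) with miR-376a*A and by 0.43 (SE 0.10, limma adjusted p = 0.0176) with miR-376a*G than in the remaining 2 controls, where 13.3% and 17.0% of all genes passed. GBP1 then passed as lower in miR-376a*A than in miR-376a*G arrays, at -0.61 (SE 0.14, limma adjusted p = 0.0210), where 9.68% of all genes passed. Against control, where its difference was -0.44 without that array, GBP1 did not pass (limma adjusted p = 0.104).

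Around the list, the pathway was followed from sensors to effectors in other lists, chosen with earlier results of these data known. Of 13 sensors and adaptors 9 were tested, and 0 passed limma's test in any comparison, with 0, 1 and 1 at an unadjusted p under 0.05 for miR-376a*A against control, miR-376a*G against control and between the forms. RIGI, the sensor of short blunt duplexes with a 5′ triphosphate, had 6.68, 6.37 and 7.16 in miR-376a*A arrays, 6.71, 6.86 and 6.80 in miR-376a*G arrays and 6.70, 6.25 and 6.80 in control arrays. Its groups overlapped, with differences of 0.15 and 0.20 against control (limma adjusted p = 0.798 and 0.668). Of the 11 kinases and transcription factors that induce interferon 0 passed (0, 1 and 0 unadjusted), and of 10 tested receptors and signalling proteins 0 passed (2, 1 and 1 unadjusted). Over all genes 3.33%, 4.62% and 2.63% passed in the 3 comparisons, and 14.9%, 17.8% and 10.7% had an unadjusted limma p under 0.05. Without control replicate 1, limma called 1 of the sensors (higher), 2 of the kinases and factors (1 higher, 1 lower) and 2 of the receptors (1 higher, 1 lower) with miR-376a*A against control, where 13.3% of all genes passed. With miR-376a*G against control it then called 0 sensors, 4 kinases and factors (2 higher, 2 lower) and 1 receptor (higher), where 17.0% of all genes passed. Between the forms it called 0 sensors, 1 kinase or factor (higher) and 1 receptor (lower), where 9.68% did.

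Interferons themselves were mostly too dim to test. Of 10 listed interferon genes 2 passed the filter, and IFNB1 had 4.11, 4.09 and 4.11 in miR-376a*A arrays, 4.10, 4.10 and 4.11 in miR-376a*G arrays and 4.12, 4.11 and 4.13 in control arrays, close to the floor of 4 that the offset sets. IFNL2, a type III interferon, had 5.47, 5.25 and 5.39 in miR-376a*A arrays, 5.35, 5.31 and 5.13 in miR-376a*G arrays and 6.10, 5.70 and 5.78 in control arrays. It fell by 0.60 with miR-376a*G (SE 0.14, limma adjusted p = 0.0376), a call past the threshold in 7 of 17 alternatives and not with a block for replicate number (adjusted p = 0.0515). With miR-376a*A the difference was -0.49 (limma adjusted p = 0.101). The levels lie little above the filter, and other members of this near-identical family could share the probes. The chemokines CXCL9, CXCL10, CXCL11 and CCL8, which draw in T cells and monocytes, were also below the filter. CXCL10 had 5.23, 5.13 and 4.96 in miR-376a*A arrays, 5.17, 4.77 and 5.06 in miR-376a*G arrays and 5.16, 4.65 and 4.94 in control arrays, with the groups overlapping.

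Among the 43 tested genes of the list of other interferon-stimulated genes, 3 rose and 0 fell with miR-376a*A against control, 4 rose and 0 fell with miR-376a*G against control, and 0 passed limma's test between the forms (3 at an unadjusted p under 0.05). Over all genes 3.33%, 4.62% and 2.63% passed in these comparisons, and 10.7% had an unadjusted limma p under 0.05 between the forms. Their medians were 0.037, 0.045 and 0.042. Without control replicate 1 the counts were 5 higher and 0 lower, 6 higher and 4 lower, and 2 higher and 1 lower in these comparisons, where 13.3%, 17.0% and 9.68% of all genes passed. NT5C3A, a pyrimidine nucleotidase, had 8.97, 8.98 and 8.99 in miR-376a*A arrays, 9.09, 9.18 and 9.21 in miR-376a*G arrays and 8.46, 8.35 and 8.18 in control arrays. It rose by 0.65 with miR-376a*A (SE 0.10, limma adjusted p = 0.00564) and by 0.83 with miR-376a*G (SE 0.10, limma adjusted p = 0.00141), in 16 and 17 of 17 alternatives. TAP2, the partner of TAP1 in the peptide transporter, also in the MHC class I list and the only gene called among its 14 tested, had 8.48, 8.41 and 8.37 in miR-376a*A arrays, 8.42, 8.41 and 8.36 in miR-376a*G arrays and 7.99, 7.96 and 7.86 in control arrays. TAP2 rose by 0.49 (SE 0.09, limma adjusted p = 0.0205) and by 0.46 (SE 0.09, limma adjusted p = 0.0228), calls that held in 9 and 8 of 17 alternatives. With a block for replicate number the adjusted p of TAP2 with miR-376a*G was 0.0620.

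TMEM140, a membrane protein, had 6.34, 6.31 and 6.42 in miR-376a*A arrays, 6.39, 6.42 and 6.35 in miR-376a*G arrays and 5.92, 5.86 and 5.80 in control arrays. It rose by 0.50 (SE 0.10, limma adjusted p = 0.0227, past the threshold in 7 of 17 alternatives) and 0.53 (SE 0.10, limma adjusted p = 0.0149, in 12 of 17, and 0.0515 with the block). CASP4, the caspase that senses cytosolic lipopolysaccharide, had 7.72, 7.74 and 7.81 in miR-376a*A arrays, 8.25, 8.26 and 8.21 in miR-376a*G arrays and 7.78, 7.18 and 7.0 in control arrays. All miR-376a*G arrays were above every other array, and CASP4 rose by 0.92 against control (SE 0.18, limma adjusted p = 0.0161, in 13 of 17 alternatives). With miR-376a*A it differed by 0.44 from control (limma adjusted p = 0.269). None of these genes was highest in miR-376a*A replicate 3 by 0.5 or more.

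The genes of the pathway lists that passed limma's test between the forms were CD274, TNFSF13B and SOCS3, where 2.63% of all genes passed. CD274, the immune checkpoint ligand PD-L1 and the only gene called among 8 tested genes of the interferon-gamma list, had 6.07, 5.93 and 6.07 in miR-376a*A arrays, 6.87, 6.90 and 6.96 in miR-376a*G arrays and 6.49, 6.65 and 6.5 in control arrays. The 3 groups did not overlap. CD274 was lower in miR-376a*A than in miR-376a*G arrays, with a difference of -0.89 (SE 0.10, limma adjusted p = 0.00150, past the threshold in all 17 alternatives). It fell by 0.52 with miR-376a*A against control (SE 0.10, limma adjusted p = 0.0220, in 6 of 17), and with miR-376a*G the difference was 0.36 (limma adjusted p = 0.0842).

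TNFSF13B, the B-cell survival cytokine BAFF and 1 of 4 tested genes of the chemokine and cytokine list, had 5.38, 5.15 and 5.29 in miR-376a*A arrays, 5.93, 5.78 and 5.87 in miR-376a*G arrays and 5.89, 5.77 and 5.84 in control arrays. Every miR-376a*A array lay below the others. TNFSF13B fell by 0.56 with miR-376a*A against control (SE 0.11, limma adjusted p = 0.0228, in 11 of 17 alternatives), and its difference from miR-376a*G was -0.58 (SE 0.11, limma adjusted p = 0.0213, in 10 of 17). SOCS3, the feedback inhibitor of JAK kinases and the only gene called among 9 tested brakes on interferon signalling, had 7.18, 6.92 and 6.92 in miR-376a*A arrays, 6.14, 6.15 and 6.14 in miR-376a*G arrays and 6.55, 7.07 and 6.78 in control arrays. SOCS3 was higher in miR-376a*A arrays than in miR-376a*G arrays by 0.87 (SE 0.14, limma adjusted p = 0.0101, in 13 of 17 alternatives). It fell by 0.66 with miR-376a*G against control (SE 0.14, limma adjusted p = 0.0295, in 5 of 17, and 0.0712 with the block), and with miR-376a*A the difference was 0.21 (limma adjusted p = 0.564).

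**Figure D5:**
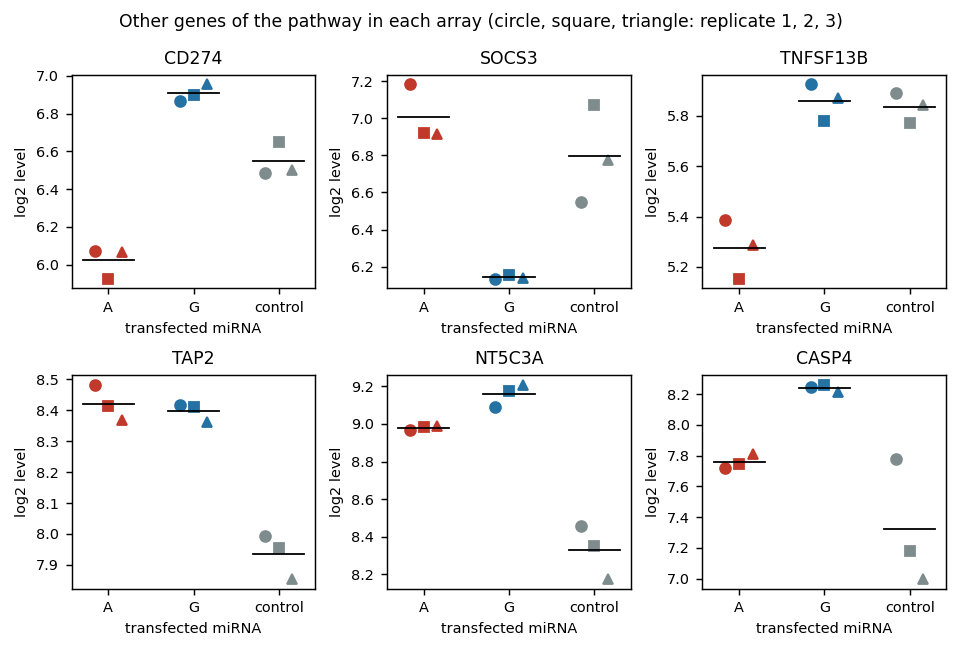
Log2 level of 6 other genes of the interferon pathway in each of the 9 arrays, with circles, squares and triangles for replicates 1, 2 and 3, bars for group means, and miR-376a*A (A), miR-376a*G (G) and miR-control arrays from left to right; each panel has its own scale. TAP2 and NT5C3A were above control in all 6 arrays of the 2 forms, and CD274, SOCS3 and TNFSF13B differed between the forms.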

How the data were processed

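Linear signal intensities for 54675 probe sets and 9 arrays were deposited by the authors. GCOS 1.4.0.036 is named per the submitters' processing notes, and how probes were summarised and background removed is not given in the sources used here. Trimming 2% at each end gave deposited array means of 100.01 to 100.013, so the intensity values had already been brought to 1 level, which hides a change common to most transcripts. After log2(signal + 16) the array medians still ranged over 0.20, and the arrays were quantile normalized.

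Gene names came from the platform annotation (41097 with 1 symbol, 1801 with several, 11777 with none in the table used here; 41043 had a gene ID in the RefSeq table of GRCh38.p14, with 0 symbols changed). Those with a mean below the 50th percentile, 5.17, were left out, and the brightest of each gene was kept. The 3 groups were fitted together in R 4.3.3 with limma 3.58.1 (lmFit, eBayes with an intensity trend), in 3 comparisons, with Benjamini-Hochberg adjustment over all 12505 genes and a threshold of 0.05. The fit was tested on simulated data with independent genes and, for each gene, the same spread in every array. That setting holds no array that differs from the rest as control replicate 1 does, and no shift shared by genes. With 3 arrays a group precision is limited, and an exact test of 3 against 3 cannot go below 0.1.

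The members and all lists were chosen with earlier results of these data known. Values per array are given for members past the threshold, the 8 largest differences per comparison, the 8 brightest and the brightest of each role; TAP1, RSAD2 and CMPK2 were added for the results they bear on, and IFNB1 and CXCL10 were chosen after their values were seen. Of the other lists every gene past the threshold is named, up to 6 per list and comparison, with RIGI always; 1 listed gene is not reported here.

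Same-numbered arrays of miR-376a*G and control deviated together from their group means over genes (r of 0.156, 0.187 and 0.125, each over the limit of 0.1), although the labels name nothing shared. The block values are therefore given where they change a call or a count there. For miR-376a*A and control r was -0.335, 0.0315 and -0.361, and for miR-376a*A and miR-376a*G -0.0909, -0.0984 and -0.0314. The alternatives were median centring, offsets of 1 and 64, no filter, the mean of a gene's probe sets, the replicate block, array weights, only the 6 arrays compared, and each array left out. Another, added after the data were seen, fitted each probe set by itself.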

Additional observations from a re-analysis of the deposited data

Results flagged for a closer look

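For 3 genes of the interferon pathway the effects of the 2 forms, each set against the same control arrays, differed by the direct contrast between the forms. Over all genes 2.63% passed this contrast. TNFSF13B, CD274 and SOCS3 were 1 of 4, 1 of 8 and 1 of 9 tested genes in their lists, and the other lists held none. The log2 difference of miR-376a*A minus miR-376a*G was -0.58 for TNFSF13B (limma adjusted p = 0.0213), -0.89 for CD274 (limma adjusted p = 0.00150) and 0.87 for SOCS3 (limma adjusted p = 0.0101). The levels of TNFSF13B in miR-376a*A arrays lie near the filter. None of the 40 tested interferon response genes passed the contrast between the forms. Of the 40, 1 gene, GBP1, had an unadjusted limma p under 0.05, beside 10.7% of all genes. With 3 arrays a group, single arrays were not tested as outliers.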

How the results depend on the processing

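Over 17 alternatives the number of the 40 genes past the threshold stayed at 0 except in these. Array weights, which gave control replicate 1 a weight of 0.071, called 1 higher (TAP1) and 1 lower (GBP1) with miR-376a*A against control, 3 higher with miR-376a*G against control (IFI44, PARP14 and TAP1) and 1 lower between the forms (GBP1). Between the forms 1 was lower, GBP1, with the mean of a gene's probe sets and with only the 6 arrays compared. Leaving out single arrays gave 0 to 1 higher with miR-376a*A against control, 0 to 1 higher with miR-376a*G against control and 0 to 1 lower between the forms, the calls being TAP1 and GBP1 without control replicate 1 and EIF2AK2 without control replicate 3. Over all genes 417, 578 and 329 passed in the 3 comparisons. Array weights gave 2315, 2427 and 1656, only the 6 arrays compared 156, 204 and 1292, and leaving out single arrays 176 to 1669, 235 to 2124 and 143 to 1210, the highest each time without control replicate 1. With a block for replicate number 360 genes passed for miR-376a*G against control, 0 of the 40 genes passed in any comparison, and the calls of TAP2, TMEM140, IFNL2 and SOCS3 against control with miR-376a*G ended. With miR-376a*A, whose same-numbered arrays did not deviate together with those of control, TAP2, CD274 and TMEM140 had limma adjusted p of 0.0606, 0.0732 and 0.0747 under the block. The MX1 difference ran from -0.32 to 0.74 with miR-376a*A against control and from -0.85 to 0.22 between the forms as single arrays were left out, negative against control without miR-376a*A replicate 3 only and positive between the forms without miR-376a*A replicate 1 (0.03) or 2 (0.22). The causes were not tested. The medians of the 40 genes ran from -0.099 to 0.18, from -0.062 to 0.13 and from -0.14 to 0.13 in the 3 comparisons. Signals near the floor, as for interferons and chemokines, limit what these arrays can show.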
